A study of Homo sapiens with 18 samples.

Results

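The genes described here are CSF1R, LYZ, S100A9 and CD14, 4 genes that rise as monocytes mature, followed over all 6 treatment groups of a study of epigenetic drugs in U937 cells. They were found by their gene symbols in the annotation of the array, which gave 5 probe sets, 2 of them for LYZ and 1 for each of the others, out of 48226 probe sets and 14884 genes with a name. U937 is an established human cell line of the monocytic lineage that came from a histiocytic lymphoma, and it is a single line, so nothing here extends to other cells. Expression was read on Affymetrix microarrays, 3 arrays for each group and 18 in all.

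The groups were a control labelled ctrl, decitabine (5-aza-2'-deoxycytidine) labelled D50, panobinostat labelled P8, valproic acid labelled V1, and decitabine together with either panobinostat (D50P8) or valproic acid (D50V1). Decitabine is built into DNA and traps DNA methyltransferases, while panobinostat and valproic acid inhibit histone deacetylases. The protocol gives 3 pulses of decitabine of 24 h each, with the inhibitor present for 24 h from the last pulse, and all groups grew in the same serum-containing medium. The numbers 50, 8 and 1 in the labels carry no unit, so the inhibitors are not treated as dose-matched. What the control cells received, and how long an inhibitor was given where it was used alone, are not stated in the labels beyond this. The labels do not say whether a group's 3 arrays stem from different cultures, and the p-values therefore cover the spread between arrays, which may be technical.

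CSF1R is the receptor tyrosine kinase for the cytokines CSF1 and IL34, which sustain monocytes and macrophages. LYZ encodes lysozyme, an enzyme that cuts bacterial cell walls and is a major secreted product of these cells. S100A9 encodes a calcium-binding protein that pairs with S100A8 to form calprotectin, and CD14 is the co-receptor that hands bacterial lipopolysaccharide to TLR4 and LY96. All of them are textbook markers of the passage from myeloid progenitor to monocyte, and PU.1 (SPI1), RUNX1 and C/EBP factors are their best known activators.

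Because 3 of the 4 genes rose together, their promoter sequences are shown, from 250 bases before to 50 after the start of transcription, 5' to 3', as RefSeq gives them for GRCh38.p14. RefSeq windows were at hand for 3 of the 4 genes, 2 of them for CSF1R, and LYZ is named only. Capitals mark GAGGAA, the core that PU.1 binds, and TGTGGT, the core that RUNX factors bind, each searched on both strands as letters only, and no 2 of the marked matches share a base. The downstream start of CSF1R is the one known from macrophages and the upstream start is known from placental trophoblast.
CSF1R upstream start, minus strand, chr5:150113316-150113615: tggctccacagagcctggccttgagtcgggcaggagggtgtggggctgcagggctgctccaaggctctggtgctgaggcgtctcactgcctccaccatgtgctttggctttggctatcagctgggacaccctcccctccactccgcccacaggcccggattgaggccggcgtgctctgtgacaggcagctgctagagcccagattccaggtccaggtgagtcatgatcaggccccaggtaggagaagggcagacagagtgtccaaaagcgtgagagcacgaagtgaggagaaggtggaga
CSF1R downstream start, minus strand, chr5:150086505-150086804: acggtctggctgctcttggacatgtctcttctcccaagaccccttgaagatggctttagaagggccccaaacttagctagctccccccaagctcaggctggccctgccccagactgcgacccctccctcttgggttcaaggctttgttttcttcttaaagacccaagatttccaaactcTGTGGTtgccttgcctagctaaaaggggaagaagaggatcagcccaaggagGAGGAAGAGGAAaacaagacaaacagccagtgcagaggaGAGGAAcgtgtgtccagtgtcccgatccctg
S100A9, plus strand, chr1:153357604-153357903: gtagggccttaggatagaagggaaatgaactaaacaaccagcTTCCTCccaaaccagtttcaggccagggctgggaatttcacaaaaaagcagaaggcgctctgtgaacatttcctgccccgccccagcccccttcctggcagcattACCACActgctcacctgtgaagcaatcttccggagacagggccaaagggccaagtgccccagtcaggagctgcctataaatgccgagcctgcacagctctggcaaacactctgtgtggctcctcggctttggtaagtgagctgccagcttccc
CD14, minus strand, chr5:140633126-140633425: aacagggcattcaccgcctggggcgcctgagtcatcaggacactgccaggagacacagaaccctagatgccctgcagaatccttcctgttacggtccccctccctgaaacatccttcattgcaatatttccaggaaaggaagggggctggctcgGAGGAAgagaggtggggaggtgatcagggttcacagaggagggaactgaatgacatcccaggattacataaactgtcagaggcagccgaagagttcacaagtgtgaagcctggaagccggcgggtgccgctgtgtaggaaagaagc

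The downstream CSF1R window held 3 matches to GAGGAA and 1 to TGTGGT, and the upstream window held neither. S100A9 had 1 of each, and CD14 had 1 GAGGAA and no TGTGGT. Over 34943 windows of the same length, 27.9% held GAGGAA and 13.1% held TGTGGT on either strand, so each match by itself is common. Searched but not marked were TTNNGNAA for C/EBP factors, TGANTCA for AP-1 and TATAAA, with N for any base. TTNNGNAA, held by 36.9% of all windows, had 2 matches in S100A9, 1 in CD14 and 1 in the downstream CSF1R window. TGANTCA (7.72% of all windows) had 1 match in the upstream CSF1R window and 1 in CD14. TATAAA (11.6%) had 1 in S100A9. CG dinucleotides, where DNA methylation sits, numbered 8 in the upstream CSF1R window, 4 in the downstream one, 5 in S100A9 and 8 in CD14, against a median of 14 over all windows. Methylation and factor binding were not measured here, the probe set of CSF1R does not tell its starts apart, and a match is a description of letters and not a site.

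CSF1R (probe set 17001545) was low in control cells and higher under every treatment. The control arrays read 4.66, 4.20 and 4.15 on the log2 scale, with a mean of 4.34 (SD 0.28, n = 3). The decitabine arrays read 7.17, 6.23 and 6.86, the highest group mean at 6.75 (SD 0.48). The lowest of the 15 treated arrays, at 5.65, was still above the highest control array. With each treatment, combinations included, set against control separately, 11.5% to 16.9% of all genes had that group's arrays all above control. Separation in any given treatment is thus common by itself. How many genes were separated under every treatment together was not counted.

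With panobinostat the CSF1R levels were 6.59, 5.93 and 6.31, and with valproic acid 5.68, 5.65 and 6.06. With decitabine plus panobinostat they were 6.92, 6.30 and 5.82, and with decitabine plus valproic acid 6.65, 6.88 and 5.96. Both combinations thus lay inside the range set by the single agents, and neither exceeded decitabine. In the order of means, decitabine came first, then decitabine plus valproic acid (6.50), decitabine plus panobinostat (6.35), panobinostat (6.28), valproic acid (5.80) and control. Arrays of each neighbouring pair in that order overlapped, other than those of valproic acid and control.

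LYZ (probe set 16753914) was already well expressed in control cells, at 7.45, 7.05 and 7.48, with a mean of 7.33 (SD 0.24). Decitabine brought it to 9.05, 9.04 and 8.91, the tightest of the groups (SD 0.08), and panobinostat to 9.30, 8.91 and 8.89. Valproic acid gave 8.42, 7.70 and 8.21, of which the replicate 2 array came close to the control range. All treated arrays were above all control arrays. With each treatment set against control separately, 11.5% to 16.9% of all genes had that group's arrays all above control. The share of genes above control under every treatment together was not counted.

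Decitabine plus panobinostat gave the highest LYZ levels, 9.26, 9.88 and 9.56, and decitabine plus valproic acid gave 9.34, 9.05 and 9.14. The means ran from decitabine plus panobinostat (9.57) through decitabine plus valproic acid (9.18), panobinostat (9.03), decitabine (just below panobinostat) and valproic acid (8.11) to control. The first 4 of these groups overlapped with their neighbours, whereas valproic acid was separated from decitabine above it and from control below it.

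The other LYZ probe set (16767364) read lower, with a control mean of 4.37 (SD 0.17), and its group means spanned 4.37 to 5.27. Here decitabine was highest, at 5.30, 5.23 and 5.28, and decitabine plus panobinostat gave 5.23, 4.78 and 5.09, so the order of the top groups was not the same on the 2 probe sets. Valproic acid overlapped with control on it. Where the probes of either set lie in the gene is not given in the tables used here.

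S100A9 (probe set 16671139) read 4.51, 4.04 and 4.43 in control cells, a mean of 4.33 (SD 0.25). Decitabine gave 5.46, 5.26 and 5.48, and panobinostat 5.94, 5.65 and 5.59. Valproic acid gave 5.19, 4.37 and 5.38, so that 1 of its 3 arrays, replicate 2, fell within the control range.

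Decitabine plus panobinostat again stood highest, with S100A9 at 6.54, 5.78 and 6.23, and decitabine plus valproic acid read 5.67, 5.33 and 5.59. Means fell from 6.18 with decitabine plus panobinostat to 5.73 with panobinostat, 5.53 with decitabine plus valproic acid, 5.40 with decitabine and 4.98 with valproic acid. Each group overlapped with its neighbours in this order, valproic acid and control included.

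CD14 (probe set 17000793) did not follow the others. Its control arrays read 3.39, 3.57 and 3.40, a mean of 3.45 (SD 0.10), and the highest of all 18 arrays was that control value of 3.57. The medians of whole arrays lay between 3.81 and 3.87, so CD14 read below the middle of every array, and no detection call was at hand to say whether it was above background. The lowest group was decitabine, at 3.19, 3.14 and 3.27, and the group means of CD14 spanned 0.25, less than in 75.8% of genes.

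**Figure D1:**
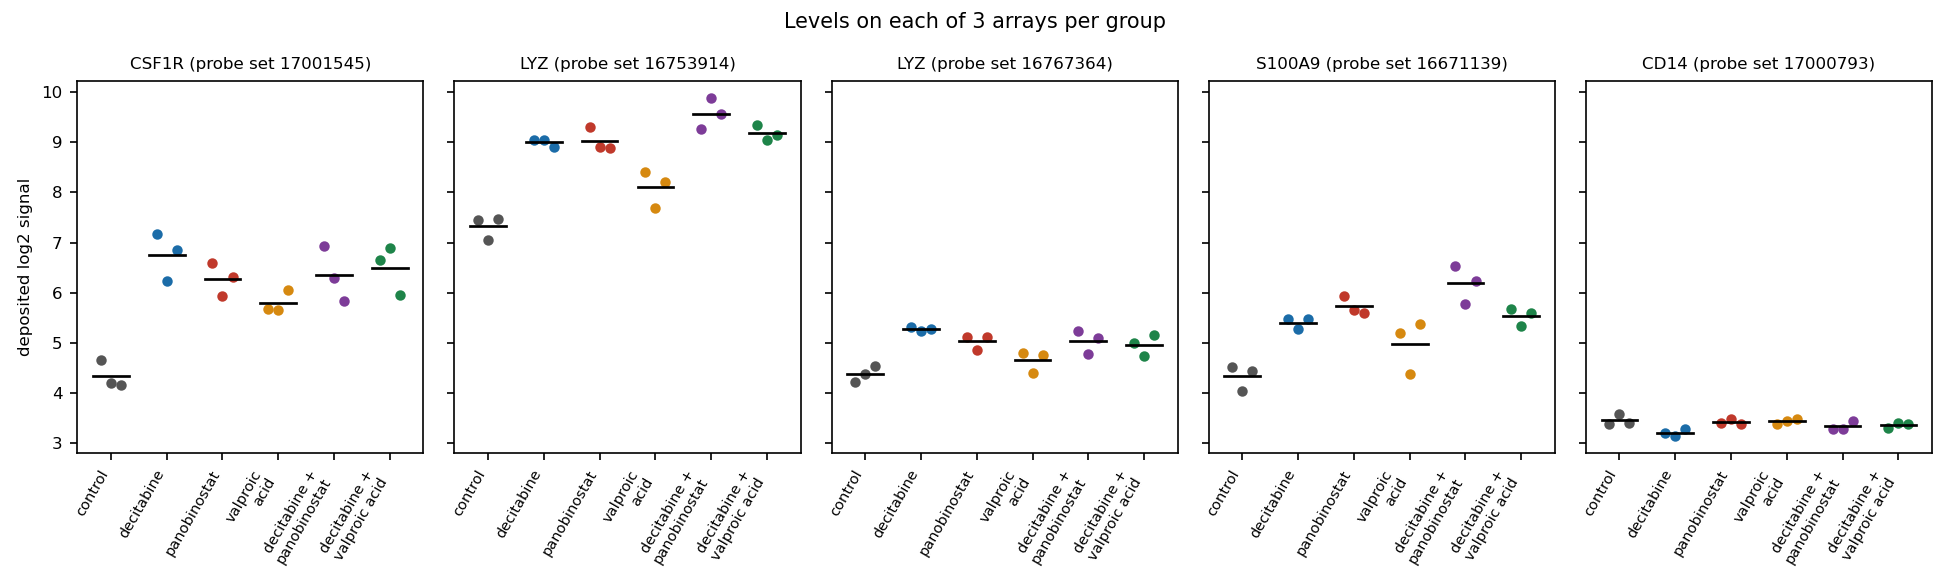
Deposited log2 signal (vertical axis) of the 5 probe sets on every array, by treatment group (horizontal axis), with points for arrays and a bar for the mean of 3. CSF1R rises from 4.34 in control to 6.75 with decitabine and LYZ from 7.33 to 9.57 with decitabine plus panobinostat, while CD14 stays between 3.14 and 3.57.

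Tests of each treatment against control used limma across all 14884 genes, and a gene is said to be called at a Benjamini-Hochberg adjusted p under 0.05. Of the 4 genes, 3 were called higher with decitabine, where 3.96% of all genes were called in either direction and 2.57% were called higher. With panobinostat 3 were called higher against 7.39% of all genes (3.92% higher), and with valproic acid 2, against 7.47% (4.73% higher). With decitabine plus panobinostat 3 were called higher against 23.2% of all genes (11.2% higher), and with decitabine plus valproic acid 3 against 17% (8.9% higher). The 5 comparisons share the same control arrays and are not independent of each other. The 4 genes were chosen with earlier results of these data known, so the shares of all genes are a description and not a test of them.

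CSF1R rose most with decitabine, by 2.41 on the log2 scale (SE 0.30, adjusted p = 0.000103 in limma), or 5.33-fold. The rise was 1.94 with panobinostat (adjusted p = 0.000715), 1.46 with valproic acid (adjusted p = 0.00724), 2.01 with decitabine plus panobinostat (adjusted p = 0.000113) and 2.16 with decitabine plus valproic acid (adjusted p = 0.000117), each with an SE of 0.30. These are folds of 3.84, 2.75, 4.03 and 4.47. With any array left out CSF1R was called in all 5 comparisons, and the highest adjusted p was 0.0361, for valproic acid.

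LYZ rose by 1.67 with decitabine (SE 0.19, adjusted p = 4.3e-05 in limma) and by 1.71 with panobinostat (adjusted p = 3.58e-05), or 3.19-fold and 3.27-fold. The rise with decitabine plus panobinostat was 2.24 (adjusted p = 4.22e-07), or 4.73-fold, and with decitabine plus valproic acid 1.85 (adjusted p = 6.3e-06). Valproic acid alone raised LYZ by 0.78 (adjusted p = 0.0189), a call that was lost without control replicate 2, valproic acid replicate 1 or valproic acid replicate 3, and in a fit of only the 2 groups compared. The other probe set of LYZ rose by 0.90, 0.65, 0.66 and 0.58 with decitabine, with panobinostat and in the combinations with panobinostat and with valproic acid, all called. Its change with valproic acid was 0.27 (SE 0.15, adjusted p = 0.352 over all named probe sets) and was not called.

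S100A9 rose by 1.07 with decitabine (SE 0.23, adjusted p = 0.0132 in limma), 1.40 with panobinostat (adjusted p = 0.00121), 1.85 with decitabine plus panobinostat (adjusted p = 2.21e-05) and 1.20 with decitabine plus valproic acid (adjusted p = 0.00169). As folds these are 2.10, 2.63, 3.61 and 2.30. The call with decitabine was lost without control replicate 2, decitabine replicate 1 or decitabine replicate 3, at adjusted p of up to 0.0725. With valproic acid the difference was 0.65 (95% interval 0.16 to 1.14, adjusted p = 0.107) and was not called, although it was called without the low replicate 2 array of valproic acid, at 0.95 (adjusted p = 0.0109). It was also called with replicate number as a block (adjusted p = 0.0202 in limma), although these numbers were not taken as pairs. In all 6 groups the replicate 2 array read below the group mean of S100A9.

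CD14 was not called in any of the 13 comparisons. Its largest difference was with decitabine, -0.25 (95% interval -0.44 to -0.06), with an adjusted p of 0.148. All 3 decitabine arrays were below the controls, as for 11.2% of all genes. The intervals of the other 4 treatments reached from -0.31 to 0.17, outside the changes called for the other 3 genes.

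**Figure D2:**
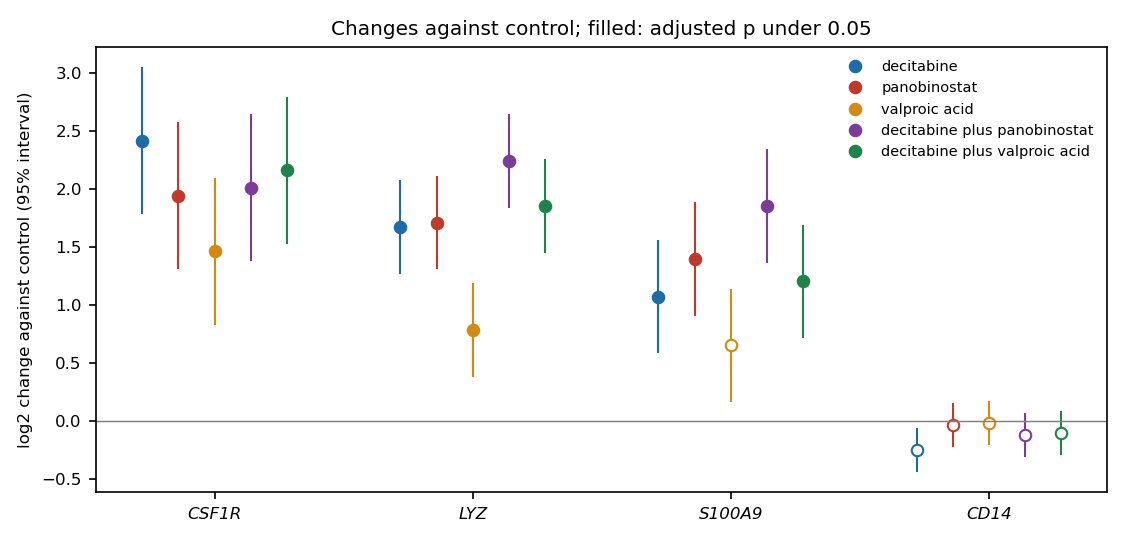
Change against control on the log2 scale (vertical axis, with 95% intervals from limma) for each gene (horizontal axis) under the 5 treatments, filled where the adjusted p was under 0.05. CSF1R and LYZ are filled in all 5, S100A9 is open with valproic acid (0.65), and CD14 is open throughout.

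Each combination was also set against its single agents. Against decitabine alone, adding panobinostat raised S100A9 by 0.78 (SE 0.23, adjusted p = 0.03 in limma), the only 1 of the 4 genes called there, where 15.6% of all genes were called and 7.66% were called higher. That call was lost when any 1 of 5 of the 6 arrays was left out, at adjusted p of up to 0.135. LYZ differed by 0.57 (95% interval 0.16 to 0.97, adjusted p = 0.0551), with the arrays of the combination all above those of decitabine, as for 14.2% of all genes. On the other LYZ probe set the difference went the other way, at -0.23 (-0.55 to 0.08, adjusted p = 0.365), with overlapping arrays. CSF1R differed by -0.40 (-1.04 to 0.23, adjusted p = 0.453).

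Against panobinostat alone, adding decitabine called none of the 4 genes, where 9.55% of all genes were called. The differences were 0.07 for CSF1R (95% interval -0.56 to 0.71), 0.53 for LYZ (0.13 to 0.94) and 0.46 for S100A9 (-0.03 to 0.95). At an unadjusted p under 0.05 only LYZ would pass. The other LYZ probe set differed by 0.01 (-0.30 to 0.32).

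Against decitabine alone, adding valproic acid also called none, where 6.13% of all genes were called, and the differences were -0.25 for CSF1R, 0.18 for LYZ and 0.13 for S100A9. Their 95% intervals reached from -0.89 to 0.38, from -0.22 to 0.58 and from -0.36 to 0.62. On the other LYZ probe set the difference was -0.31 (adjusted p = 0.259 in limma), with the arrays of the combination all below those of decitabine, as for 11.7% of all genes. Against valproic acid alone, adding decitabine raised LYZ by 1.07 (SE 0.19, adjusted p = 0.00316 in limma), or 2.10-fold, where 4.03% of genes were called (2.63% higher). CSF1R was 0.70 higher there (0.06 to 1.33, adjusted p = 0.257) and S100A9 0.55 higher (0.06 to 1.04, adjusted p = 0.242), and neither was called. The other LYZ probe set was 0.31 higher (0.00 to 0.63, adjusted p = 0.323) and was not called either.

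Panobinostat and valproic acid, at doses not known to match, gave LYZ levels 0.93 apart (95% interval 0.52 to 1.33, adjusted p = 0.0982) and S100A9 levels 0.74 apart (0.26 to 1.23, adjusted p = 0.293), with panobinostat higher on every array of both genes. Neither was called in a comparison in which 0.121% of all genes were called and 6.03% were higher with panobinostat on every array. CSF1R differed by 0.48 (-0.16 to 1.11). Between the 2 combinations no member was called, where 0.652% of genes were, and S100A9 was 0.65 higher with panobinostat in the pair (0.16 to 1.14, adjusted p = 0.243).

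CSF1R with decitabine plus panobinostat fell short of the sum of its rises with the single agents. On the log2 scale the changes of CSF1R with decitabine and with panobinostat sum to 4.36, a level of 8.69, whereas the combination changed it by 2.01 to a level of 6.35. The interaction, the change with both agents minus that sum, was -2.34 (SE 0.42, 95% interval -3.24 to -1.45, adjusted p = 0.0151 in limma). Only 0.625% of all genes had a called interaction of decitabine and panobinostat, and 0.289% of all genes had one below the sum. The call was lost without control replicate 2 (adjusted p = 0.0525) or control replicate 3 (adjusted p = 0.0523), while the value stayed between -2.63 and -2.08 with any array left out.

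For LYZ the same interaction was -1.14 (SE 0.27, adjusted p = 0.0721) and was not called, and for S100A9 it was -0.62 (SE 0.33, adjusted p = 0.551). The LYZ value on the other probe set was -0.89 (SE 0.21, adjusted p = 0.0767). With the 2 probe sets averaged, LYZ was called, at -1.02 (adjusted p = 0.0226). With valproic acid the interactions were -1.72 for CSF1R (SE 0.42, adjusted p = 0.178), -0.60 for LYZ and -0.52 for S100A9, none of them called, where 0.0605% of all genes were called. CD14, which did not move, had interactions of 0.17 with either inhibitor.

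The scale on which changes are summed matters for LYZ and S100A9. If the antilogs of the levels are summed instead, a choice made after the data were seen and with no test, CSF1R with decitabine plus panobinostat reached 50.3% of the expected signal, or -0.99 on the log2 scale. Leaving out any 1 of the 12 arrays moved this between -1.33 and -0.77. LYZ reached 87.5% (-0.19, between -0.36 and -0.05) and S100A9 98.7% (-0.02, between -0.21 and 0.16). With valproic acid the shares were 63.5% for CSF1R, 92% for LYZ and 84.5% for S100A9. On this scale CSF1R was thus the gene of the 3 furthest below its sum with both inhibitors, and S100A9 with panobinostat was close to its sum.

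**Figure D3:**
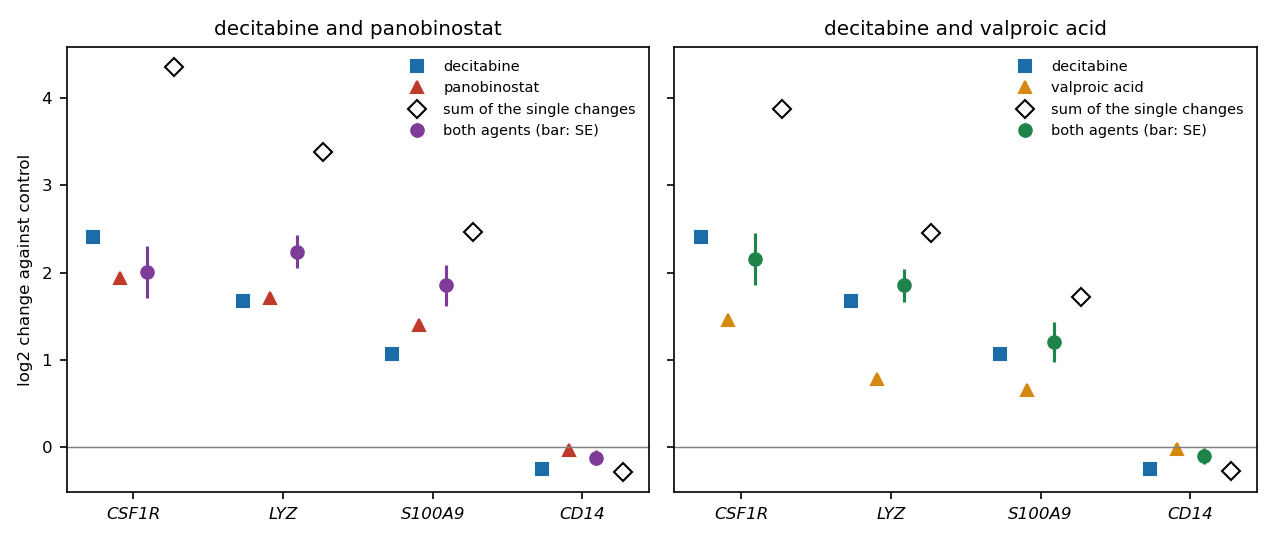
Log2 change against control (vertical axis) for each gene (horizontal axis) with decitabine alone, the inhibitor alone, both agents (SE bar) and the sum of the single changes (open diamond), for panobinostat on the left and valproic acid on the right. For CSF1R the combination with panobinostat is at 2.01 and the sum at 4.36, while for S100A9 they are at 1.85 and 2.47.

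The counts on gene lists that follow are read against the shares of all genes called, which were 3.96% for decitabine, 7.39% and 7.47% for panobinostat and valproic acid, and 23.2% and 17% when these were combined with decitabine. The list of its ligands and signaling partners had 8 measured members of 16, of which 1 was called higher with decitabine and 1 with panobinostat. In limma 5 were called with decitabine plus panobinostat, 2 in the valproic acid combination and none with valproic acid alone, and no call was lower. These are 62.5% and 25% of the list in the combinations, and the count of 5 ranged down to 2 with 1 array left out. The list's median change was 0.30 with decitabine, 0.33 with panobinostat, 0.08 with valproic acid, and 0.46 and 0.25 in the combinations with panobinostat and valproic acid, beside medians of all genes between -0.02 and 0.00. TYROBP, an adaptor that signals for myeloid receptors, rose by 2.91 with decitabine (SE 0.17), 0.78 with panobinostat and by 2.37 and 2.68 when panobinostat or valproic acid was combined with decitabine. It too fell short of the sum with panobinostat, with an interaction of -1.32 (SE 0.24, adjusted p = 0.0151 in limma). The ligand CSF1 rose by 0.83 with decitabine plus panobinostat (SE 0.23, adjusted p = 0.0161 in limma). It differed by 0.50 with decitabine, which was not called although all arrays were above control, as for 11.5% of all genes. The combination differed from decitabine by 0.33 (adjusted p = 0.434) and from panobinostat by 0.46 (adjusted p = 0.282), neither called. The CSF1 call was lost without control replicate 3 or the combination's replicate 1 or 3, at adjusted p of up to 0.0848. With decitabine plus panobinostat the adaptor SHC1 rose by 0.65 and the kinase SYK by 0.51. The SHC1 call was lost without control replicate 1 or 3 or the combination's replicate 3, and the SYK call without control replicate 1 or the combination's replicate 3. The kinase LYN rose by 0.40 with decitabine plus panobinostat and by 0.28 with valproic acid in the combination, a call lost under 8 alternatives. The other ligand, IL34, differed by between -0.09 and 0.07 and was not called. In control CSF1 (3.65) and IL34 (3.69) read below the array medians, and whether they were above background was not tested.

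Transcription factors of the myeloid lineage, 15 measured of 23, had no limma call with decitabine, while panobinostat called 2 and valproic acid 3, all higher. Combined with decitabine, panobinostat called 7 (5 higher and 2 lower) and valproic acid 3, all higher. These were 46.7% and 20% of the list, the latter near the share of all genes, and with 1 array left out they ranged from 3 to 6 and from 1 to 4. SPI1, which encodes PU.1, read 6.71, 7.17 and 7.03 in control arrays and 6.24, 6.20 and 5.93 with decitabine plus panobinostat, a fall of 0.85 (SE 0.23, adjusted p = 0.0118 in limma). This call was lost without control replicate 2 (adjusted p = 0.0538) or the combination's replicate 3 (adjusted p = 0.0524). That group had the highest means of S100A9 and of LYZ on probe set 16753914, while on the other LYZ probe set decitabine alone was highest. A part of SPI1 in these changes was not tested. With the other treatments SPI1 differed by 0.16 with decitabine, -0.59 with panobinostat, -0.35 with valproic acid and -0.57 with decitabine plus valproic acid, none called. RUNX1 rose by 1.18 with decitabine plus valproic acid (SE 0.35, adjusted p = 0.0295) and was not called with the other treatments, and its call was lost without either of 2 control arrays or 2 arrays of the combination, at adjusted p of up to 0.128. The immediate early factor EGR1 rose by 1.99 with valproic acid and by 1.36 and 1.63 in the combinations with panobinostat and valproic acid, calls lost under 5 and 3 alternatives, and JUN rose by 0.98, 0.98 and 1.07 in the same comparisons. With panobinostat alone EGR1 was 1.43 higher (adjusted p = 0.0551 in limma) and was not called. All its arrays there were above control, as for 11.6% of all genes. FOS, which pairs with JUN in AP-1, rose by 1.40 with decitabine plus panobinostat. IKZF1 and MYB, factors of blood progenitors, rose by 0.54 and 0.65 with panobinostat and by 0.35 and 0.44 with decitabine plus panobinostat. CEBPA was not among the genes tested, so no value can be given for it.

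Of the receptor system of CD14, neither CD14 nor TLR4 was called with any treatment. Of 13 measured genes of 16, 1 was called with decitabine, 4 with panobinostat (3 higher), 4 with valproic acid (3 higher), 6 with decitabine plus panobinostat (3 higher) and 6 with decitabine plus valproic acid (2 higher). These are 7.69%, 30.8%, 30.8%, 46.2% and 46.2% of the list, with calls in both directions. TLR4, the receptor to which CD14 passes lipopolysaccharide, read 7.19 (SD 0.32) in control and differed by between -0.55 and 0.18, none called. LY96, which binds lipopolysaccharide beside TLR4, rose by 0.71 with valproic acid (adjusted p = 0.0488 in limma) and 0.77 with decitabine plus panobinostat. TLR1 and TLR6, which pair with TLR2 to sense bacterial lipoproteins, showed larger changes. In control LY96 (3.79) and TLR1 (3.76) read below the array medians. TLR1 rose under all 5 treatments, from 1.12 with decitabine to 1.89 with decitabine plus panobinostat. Its call with decitabine was lost without control replicate 1 or 3 or decitabine replicate 1 or 2, at adjusted p of up to 0.0971 in limma. TLR6 rose by 2.47 with panobinostat and 2.24 with valproic acid but differed by only 0.18 with decitabine, which was not called. The kinase IRAK1 fell by 0.85, 1.15, 1.54 and 1.21 in the 4 groups that held an inhibitor, and CD180, a TLR4-like receptor, fell by 1.57 and 1.52 in the combinations. CD36, a scavenger receptor, rose by 1.22 with panobinostat.

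In the S100 family, listed with the receptor AGER, all 18 genes were measured, and 2 were called with decitabine, 1 with valproic acid and none with panobinostat in limma. The combinations called 4 with panobinostat and 3 with valproic acid, or 22.2% and 16.7% of the list, near the shares of all genes. S100A8, the partner of S100A9 in calprotectin, read 3.74 (SD 0.14) in control and differed by between -0.20 and -0.06, never called. Like CD14 it read near or below the array medians, and whether it was above background was not tested. The count of none with panobinostat excludes S100A9, which is not in the list. S100A3 rose by 1.38 with decitabine and 2.18 with decitabine plus panobinostat, and S100A10, a partner of annexin A2, by 1.10 with decitabine plus panobinostat. AGER, a receptor for several S100 proteins, fell by 0.62, 0.74 and 0.79 in the 3 groups with decitabine. Among 6 measured relatives of LYZ, of 9 listed, 1 gene was called, SPACA5 with decitabine plus panobinostat at 0.28, though its arrays overlapped with control. In control S100A10 (3.58) and SPACA5 (3.48) read below the array medians.

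Other surface and phagocyte genes of monocytes and macrophages, 16 measured of 35, had 2 calls with decitabine, 3 with panobinostat (2 higher), 3 with valproic acid (2 higher), 7 with decitabine plus panobinostat (6 higher) and 3 with decitabine plus valproic acid. These are 12.5%, 18.8%, 18.8%, 43.8% and 18.8% of the list, and the 7 ranged from 4 to 6 with 1 array left out. CD86, a costimulatory ligand, rose by 2.11, 1.74, 1.31, 2.30 and 2.28 in these comparisons and had an interaction of -1.55 with decitabine and panobinostat (SE 0.26, adjusted p = 0.00992 in limma). CD68, a lysosomal protein of macrophages, rose by 1.56 with decitabine and by 1.61 and 1.08 in the combinations with panobinostat and valproic acid. It differed by -0.18 with panobinostat, not called, and fell by 0.76 with valproic acid (adjusted p = 0.0487 in limma), a call lost under 6 alternatives. CX3CR1, the fractalkine receptor, rose by 1.45 with panobinostat, 1.43 with valproic acid and 1.53 with decitabine plus panobinostat, and C5AR1, a complement receptor, by 1.22 and 1.24 in the combinations. THBD, thrombomodulin, fell by 1.01 with panobinostat.

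**Figure D4:**
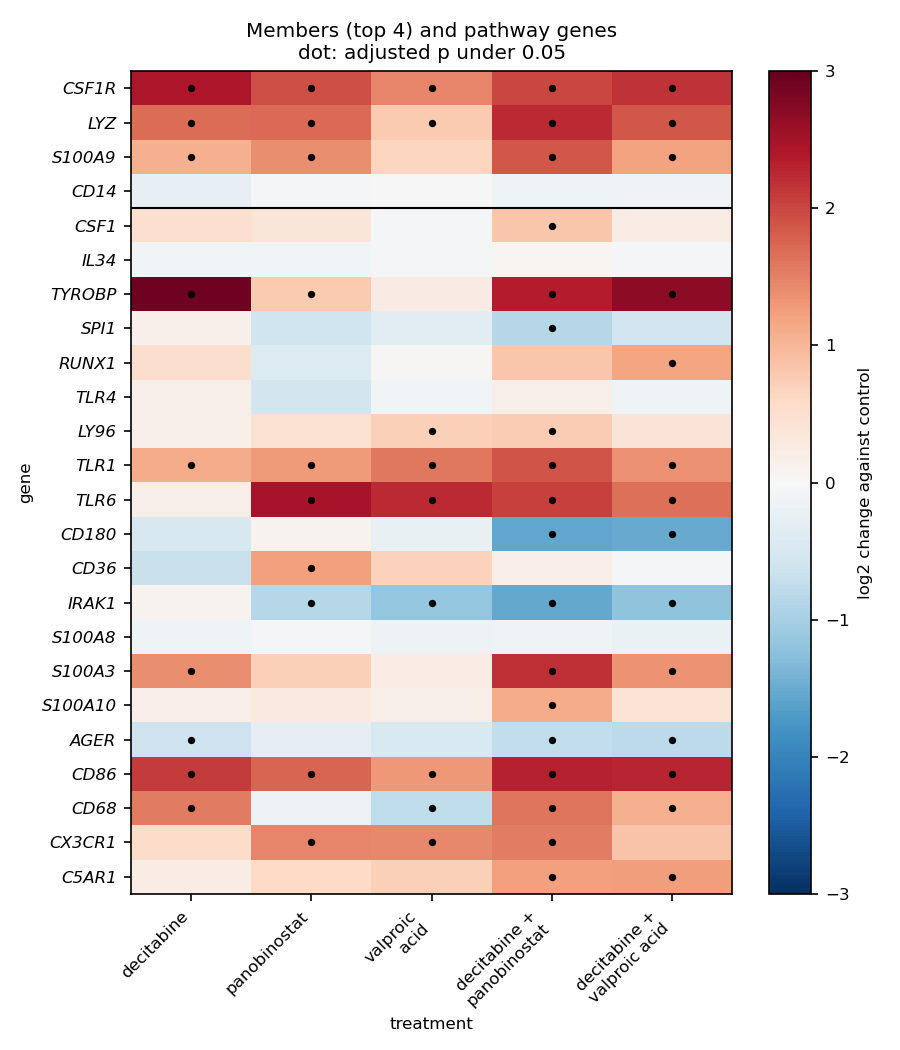
Log2 change against control (colour) of the 4 genes and of 20 pathway genes (rows) under the 5 treatments (columns), with a dot where the adjusted p was under 0.05. TYROBP and CD86 share the dark red of CSF1R with decitabine, TLR4, IL34 and S100A8 carry no dot, and SPI1 is blue with a dot with decitabine plus panobinostat (-0.85).

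The neighbours of the 4 genes on their chromosomes had no called change. The nearest tested genes, by RefSeq order, were HMGXB3 and CDX1 for CSF1R, MIR1279 and YEATS4 for LYZ, PGLYRP4 and S100A12 for S100A9, and TMCO6 and WDR55 for CD14. None was called in any treatment against control, where 3.96% to 23.2% of all genes were called, so an absence among so few genes says little. In control CDX1 (3.89), MIR1279 (3.82), PGLYRP4 (3.62) and S100A12 (3.15) read near or below the array medians. Whether they were above background was not tested. S100A12, a further calgranulin next to S100A9, differed by 0.30 with decitabine (SE 0.12, adjusted p = 0.205).

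Over the 18 arrays LYZ and S100A9 had the most similar profiles among the 4 genes, with Pearson r = 0.901 and Spearman rho = 0.847, and LYZ was the gene most like S100A9 of all genes whose group means spanned at least 1. CSF1R correlated at r = 0.806 with LYZ and 0.751 with S100A9, but at 0.412 and 0.356 over the 15 treated arrays. For LYZ and S100A9 the value over the treated arrays was 0.773. These are descriptions, since arrays of a group share a treatment, and the control arrays set part of each value. Within groups, deviations of CSF1R and LYZ from their group means correlated at 0.02, and those of LYZ and S100A9 at 0.39.

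By the same measure the 5 genes most like CSF1R were the noncoding RNA LINC00299 (r = 0.887), VIM (0.876), CD86 (0.868), HCST (0.863) and ANXA2P2 (0.861). VIM encodes the filament protein vimentin, and HCST is an adaptor of activating immune receptors. Those most like LYZ were NCF1C (0.943), MANSC1 (0.939), VIM (0.935), TPM4 (0.933) and MILR1 (0.916). For S100A9 they were LYZ, NCF1C (0.897), TPM4 (0.89), LPXN (0.888) and RXFP1 (0.877). NCF1C is a copy of NCF1, a subunit of the phagocyte oxidase, and ANXA2P2 a copy of ANXA2, and array probes may not tell such copies apart. For CD14 the list was led by FRMD4B (0.821) and MIR4500HG (0.813), followed by CLYBL (0.791), RASAL2 (0.755) and OPCML (0.745), but CD14 itself spanned only 0.25, so this ranks small differences.

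Of 10 monocyte lineage markers 7 were measured. In control arrays CD4 read 9.74, CD68 7.53, LYZ 7.33, SPI1 6.97, CSF1R 4.34, S100A9 4.33 and CD14 3.45. Probe sets differ in how they bind, so these levels are not ranked against each other, and the array has no value here that settles the cell type. The mean of the 7 ran from 6.16 to 6.32 over control arrays and from 7.08 to 7.34 with decitabine. It ran from 6.76 to 6.97 with panobinostat and from 6.42 to 6.53 with valproic acid. In the combinations it ran from 7.10 to 7.30 with panobinostat and from 6.79 to 7.22 with valproic acid. The 7 include the 4 genes described here, so this mean is no separate evidence on the lineage. With decitabine CD4 (-0.02) and SPI1 (0.16) were not called, while CD68 was called higher.

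Markers of other lineages moved too. Among 11 measured granulocyte markers of 12, PRTN3 rose by 3.04 with decitabine and by 0.96 with decitabine plus valproic acid. AZU1 rose by 0.98 with decitabine but fell by 0.73 with panobinostat and by 0.96 with valproic acid. MPO fell by 0.73, 0.79, 0.93 and 0.55 in the 4 groups with an inhibitor, and CSF3R fell by up to 1.86, with decitabine plus panobinostat. The mean level of the 11 ran from 5.53 to 5.56 over control arrays and from 5.87 to 5.98 with decitabine. It was below control with panobinostat (5.25 to 5.31), valproic acid (5.13 to 5.29) and decitabine plus panobinostat (5.18 to 5.23). With decitabine plus valproic acid it ran from 5.35 to 5.60, across the control range. Of 4 measured T and NK cell markers of 8, CD2 rose by 0.94 with decitabine and by 1.88 and 2.04 in the combinations, CD5 by 0.76 and 0.91 in the combinations, and NKG7 by 1.40 with decitabine. Their array means were 4.43 to 4.79 in control, 5.00 to 5.32 with decitabine, 5.19 to 5.44 with decitabine plus panobinostat and 5.26 to 5.67 in the valproic acid combination. Of 5 measured erythroid and megakaryocyte markers of 8, EPOR rose by 0.71, 0.79, 0.92 and 0.93 in the 4 groups with an inhibitor, PPBP by 0.44 and 0.51 in the combinations, and KLF1 fell by 0.61 with decitabine plus panobinostat. Of 3 measured B cell markers of 7, PAX5 rose by 0.76 with valproic acid, and of 5 measured dendritic cell markers of 8 none was called in limma with any treatment. The part of these genes in the changes above was not tested, and a share of cells with a changed state cannot be told apart from a change in each cell.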

How the data were processed

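Gene expression was measured on 18 Affymetrix arrays of U937 cells. The authors deposited log2 signals per probe set, which RMA had background-corrected, quantile-normalized and summarised, per the submitters' processing notes, with no version given in the sources used here. RMA fits all arrays to 1 distribution and compresses low signals, so changes from levels near 4 may be understated. Precision is set by the number of arrays.

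Probe sets were named with the array annotation and symbols updated by gene identifier to RefSeq. The probe set with the highest mean stood for a gene. A model with 1 mean per group was fitted to 14884 genes with limma 3.58.1 in R 4.3.3 (12 residual degrees of freedom), with Benjamini-Hochberg adjustment over all genes in each of 13 comparisons. An exact permutation test of 3 arrays against 3 cannot go below p = 0.1 and was not used for calls. The code was tested on simulated data.

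The 4 genes and the 6 gene lists were chosen with earlier results of these data known. Named are the 4 genes, up to 4 called genes of each list in each treatment against control, 8 partners and regulators, chromosomal neighbours, and the 5 genes most like each member. Genes named besides these were chosen after their values were seen. Replicate numbers were not taken as pairs: deviations of same-numbered arrays correlated at a median of 0.02, and 1 of 45 pairs was over 0.1. Alternatives were a fit of only the groups compared, array median centring, a filter on low levels, the mean over probe sets, another prior, a replicate block, and leaving out each array.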

Additional observations from a re-analysis of the deposited data

Results flagged for a closer look

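The effect of panobinostat on CSF1R was smaller with decitabine than without it. The interaction, a test of that difference itself, was -2.34 for CSF1R (SE 0.42, adjusted p = 0.0151 in limma). Its call was lost without control replicate 2 (adjusted p = 0.0525) or control replicate 3 (adjusted p = 0.0523). Among the pathway genes, CD86 (-1.55, SE 0.26, adjusted p = 0.00992 in limma) and TYROBP (-1.32, SE 0.24, adjusted p = 0.0151) also had a called negative interaction. The mean of TYROBP was 7.83 in control and 8.61 with panobinostat. It was 10.75 with decitabine and 10.20 with both, so TYROBP was higher with panobinostat alone but lower when panobinostat was added to decitabine. CD180 had a called negative interaction too (-1.17, SE 0.25, adjusted p = 0.0477 in limma), but no called change with panobinostat alone. Its mean was 10.28 in control and 10.37 with panobinostat. It was 9.79 with decitabine and 8.71 with decitabine plus panobinostat, so panobinostat went with a fall only when added to decitabine. CD86 was called with any 1 array left out, TYROBP lost its call without control replicate 2 (adjusted p = 0.0554), and CD180 lost it in 11 of 12 such fits. No group was large enough, at 3 arrays, for a search for outlying arrays.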

How the results depend on the processing

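Under every alternative run, CSF1R was called against control with all 5 treatments, LYZ with all but valproic acid, and S100A9 with panobinostat and in both combinations, while CD14 was called under none. LYZ with valproic acid stayed at 0.78 but missed the threshold when only the groups compared were fitted (adjusted p = 0.0684 in limma). Against decitabine, LYZ with panobinostat added, 0.57, passed with genes of low level left out (adjusted p = 0.0375) and with a trended, robust prior (adjusted p = 0.0352). That prior also called LYZ between panobinostat and valproic acid (0.93, adjusted p = 0.0309) and its interaction with panobinostat (-1.14, adjusted p = 0.0322), as did averaging its probe sets (-1.02, adjusted p = 0.0226). Averaging turned LYZ with valproic acid added to decitabine from 0.18 to -0.067. CD14 gave no value with low genes left out. The cause of these shifts was not tested.

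With the replicate block, although numbers were not taken as pairs (10 of 18 arrays correlated best with their own number), S100A9 with valproic acid, 0.65, was called (adjusted p = 0.0202). No other call on the 4 genes changed with the block.

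Leaving out 1 array moved CSF1R between -0.22 and 0.33 for decitabine plus panobinostat against panobinostat (reversed at -0.22 and -0.11). It moved between -0.52 and 0.016 for valproic acid added to decitabine, between -0.44 and 0.11 between the combinations (reversed at 0.11 and 0.04), and between -2.63 and -2.08 for the interaction with panobinostat. LYZ ranged from 0.63 to 0.99 with valproic acid, from 0.41 to 0.72 with panobinostat added to decitabine (called without the combination's replicate 1) and from -1.30 to -0.99 for that interaction (called without the combination's replicate 2). S100A9 ranged from 0.93 to 1.16 with decitabine, from 0.45 to 0.95 with valproic acid and from 0.60 to 0.98 with panobinostat added to decitabine. CD14 crossed 0 with panobinostat (-0.068 to 0.023), with valproic acid (-0.051 to 0.040, reversed at 0.040 and 0.0089), between the inhibitors (-0.047 to 0.0060, reversed also at 0.0024) and between the combinations (-0.076 to 0.012, reversed also at 0.0082 and 0.00055).

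Called genes on the CSF1R list with panobinostat went from 1 to 2 with the low-level filter or the other prior, and with decitabine plus valproic acid from 2 to 1 with only the groups compared, centred arrays or the block. Transcription factors went from 0 to 1 with decitabine under that filter or prior and from 2 to 4 with panobinostat under the prior. The S100 list went from 2 to 1 with decitabine (only the groups compared, averaged probe sets, the prior or the block) and from 0 to 1 with panobinostat (only the groups compared or the filter). The lysozyme list went from 0 to 1 with panobinostat in the fit of groups compared, and from 1 to 0 with decitabine plus panobinostat under all 6 alternatives. Over all genes, that fit gave 938 in place of 1421 for decitabine plus panobinostat against panobinostat, 177 in place of 913 for valproic acid added to decitabine, 261 in place of 600 for decitabine added to valproic acid, 0 in place of 18 between the inhibitors, 2 in place of 97 between the combinations and 3 in place of 9 for the interaction with valproic acid, which the filter raised to 20 and the prior to 16.

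With 1 array left out, the CSF1R list ranged from 0 to 1 with panobinostat, 2 to 5 with decitabine plus panobinostat and 1 to 3 with decitabine plus valproic acid. Transcription factors ranged from 0 to 1 with decitabine, 1 to 2 with valproic acid and 3 to 6 and 1 to 4 in the combinations. The Toll-like receptor list with decitabine ranged from 0 to 1, the S100 list from 1 to 2 with decitabine, 0 to 2 with panobinostat and 0 to 1 with valproic acid, the lysozyme list from 0 to 1 and the macrophage list from 4 to 6 with decitabine plus panobinostat. All genes called ranged from 361 to 468 with decitabine, 659 to 854 with panobinostat and 508 to 1001 with valproic acid. They ranged from 882 to 1126 for decitabine added to panobinostat, 360 to 1227 for valproic acid added to decitabine, 371 to 565 for decitabine added to valproic acid, 4 to 15 between the inhibitors, 26 to 109 between the combinations, and 46 to 98 and 3 to 26 for the interactions.

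Of 66 other named changes, 25 lost the call under at least 1 alternative and none reversed. AGER with decitabine, SPACA5, LYN with decitabine plus valproic acid, IKZF1, CD68 and LY96 with valproic acid, and CD180 for the interaction lost it under 6 or more.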
